A study of Mus musculus with 15 samples.

Results

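Expression was followed for 7 genes that write, copy or remove DNA methylation, Tet1, Tet2, Tet3, Dnmt1, Dnmt3a, Dnmt3b and Uhrf1, in hematopoietic stem and progenitor cells of the mouse. The genes were chosen by name and found by matching the Ensembl gene IDs of the count table to GENCODE M21 symbols. They are 7 of 45232 gene IDs, each matched 1 row, and all 7 were among the 17834 genes with enough counts to be tested.

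Bone marrow of C57BL/6 mice (C57BL/6J in the methods of the paper) was sorted for CD45.2+ LSK cells, which lack lineage markers and carry Sca-1 and c-Kit. RNA was amplified with the SMARTer method and sequenced in 15 libraries, 3 in each of 5 groups. The WT group held WT cells. The vehicle, AG221, Rux and combo groups held cells carrying Idh2 R140Q together with Jak2 V617F, taken from transplant recipients that got no drug, AG221 (an inhibitor of mutant IDH2, 40 mg/kg per the labels), ruxolitinib (a JAK1 and JAK2 inhibitor, 60 mg/kg) or both by gavage for 21 to 28 days, the final dose about 1.5 hours before sacrifice. The study's mutant alleles were switched on by Mx1-Cre, which acts in blood-forming and in other interferon-responsive cells, and its irradiated CD45.1 hosts also received WT CD45.1 marrow, which the sort leaves out. The mice used in the study were of both sexes and between 6 months and 1.5 years old. Which age and sex belong to each library is not given in the sources used here. The paper's figure caption gives n = 3 per group and speaks of mice, which reads as 1 mouse per library. Pooling is not addressed there. The p-values measure the spread between libraries, part of which may be technical.

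The replicate names begin with A in vehicle, AG221 and Rux and with B in combo and WT. What the letter stands for is not given in the sources used here. Of the comparisons made, vehicle against WT and combo against vehicle, AG221 or Rux cross the letters, and in these group and letter cannot be told apart. AG221 against vehicle, Rux against vehicle and combo against WT lie within a letter. AG221 against WT, Rux against WT and AG221 against Rux were not analysed here. Sex-linked transcripts set WT apart from the mutant groups. Xist was at 455 to 511 CPM in WT and at most 19.5 CPM in each mutant library, and Ddx3y, on the Y chromosome, at most 0.101 CPM in WT and at least 124 CPM in the others. In vehicle against WT and in combo against WT, genotype and sex therefore cannot be told apart, for any of the genes described here. Whether the WT mice were irradiated, transplanted or gavaged is not given in the sources used here. Any such difference from the mutant groups would also go with genotype in these comparisons. WT also had more genes with a count, 29782 to 34487 per library beside 21369 to 26329 in the mutant libraries, and higher TMM scaling factors, 1.13 to 1.17 beside 0.916 to 1.02, and their part in the differences from WT was not tested. Total counts ran from 18836625 to 32174287 per library with a median of 25545779, and 3 counts corresponded to 0.0957 to 0.156 CPM, the counts scaled by library size, far below the level of each of the 7 genes. The libraries of a group were not equally alike. In AG221, A8 and A10 lay close to each other and A9 lay apart from both, with log2 CPM correlations over genes of 0.983 between A8 and A10 and of 0.960 and 0.966 between A9 and these. In Rux, A16 lay apart from A14 and A17, at 0.964 and 0.967 beside 0.981 between those. AG221 A8 and A10 and Rux A16 shared low levels of some of the 7 genes, and calls that rest on them, and correlations with Idh2 and with the immediate early genes, are given with and without them. Without them AG221 A9 is alone in its group, and it adds nothing to correlations after removal of the group means. Tet2 and Dnmt3a overlap genes on the opposite strand over 0.255% and 0.799% of their exons, and the other 5 genes over 0%, which matters because the strand setting of the counting is not given in the sources used here.

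DNA methylation is set by the de novo methyltransferases Dnmt3a and Dnmt3b and copied to the new strand at replication by Dnmt1, which Uhrf1 brings to hemimethylated CpG sites. The Tet dioxygenases oxidize 5-methylcytosine to 5-hydroxymethylcytosine and further, using iron and 2-oxoglutarate, and mutant IDH2 makes 2-hydroxyglutarate, which competes with 2-oxoglutarate at these enzymes. TET2 and DNMT3A are among the genes most often mutated in clonal blood disorders, and loss of either in mouse stem cells raises self-renewal. The counts report transcript levels, and they say nothing of enzyme activity or of methylation itself.

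Compared per kilobase of merged exons, the maintenance pair was the most abundant. Dnmt1 averaged 101 ± 25.6 CPM per kb and Uhrf1 85.7 ± 19.8 (SD, n = 15 libraries). Dnmt3b followed at 10.4 ± 5.24 CPM per kb, and Dnmt3a at 5.02 ± 0.914. The Tet genes lay close together, Tet1 at 4.61 ± 0.867, Tet2 at 4.45 ± 0.776 and Tet3 at 4.28 ± 1.40 CPM per kb, and their ranges overlapped. Their order turned with the group, from Tet2 (5.21), Tet1 (4.68) and Tet3 (3.79 CPM per kb) in vehicle to Tet3 (5.72), Tet1 (4.15) and Tet2 (3.55 CPM per kb) in combo. Dnmt3a was above all Tet genes in WT (6.42 CPM per kb) but in no mutant group. In vehicle Tet2 and Tet1 lay above Dnmt3a (4.58), as did Tet2 in AG221 (4.81 against 4.64). The same held for Tet2 (4.66) and Tet1 (4.44) in Rux, against 4.35, and for Tet3 in combo, against 5.12. Dnmt3b and Tet3 had the widest relative spread of the 5 less abundant genes, and both are taken up library by library below. Dnmt3l, a partner of the de novo enzymes with no catalytic activity of its own, stayed at or under 1.50 CPM in each library.

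**Figure D1:**
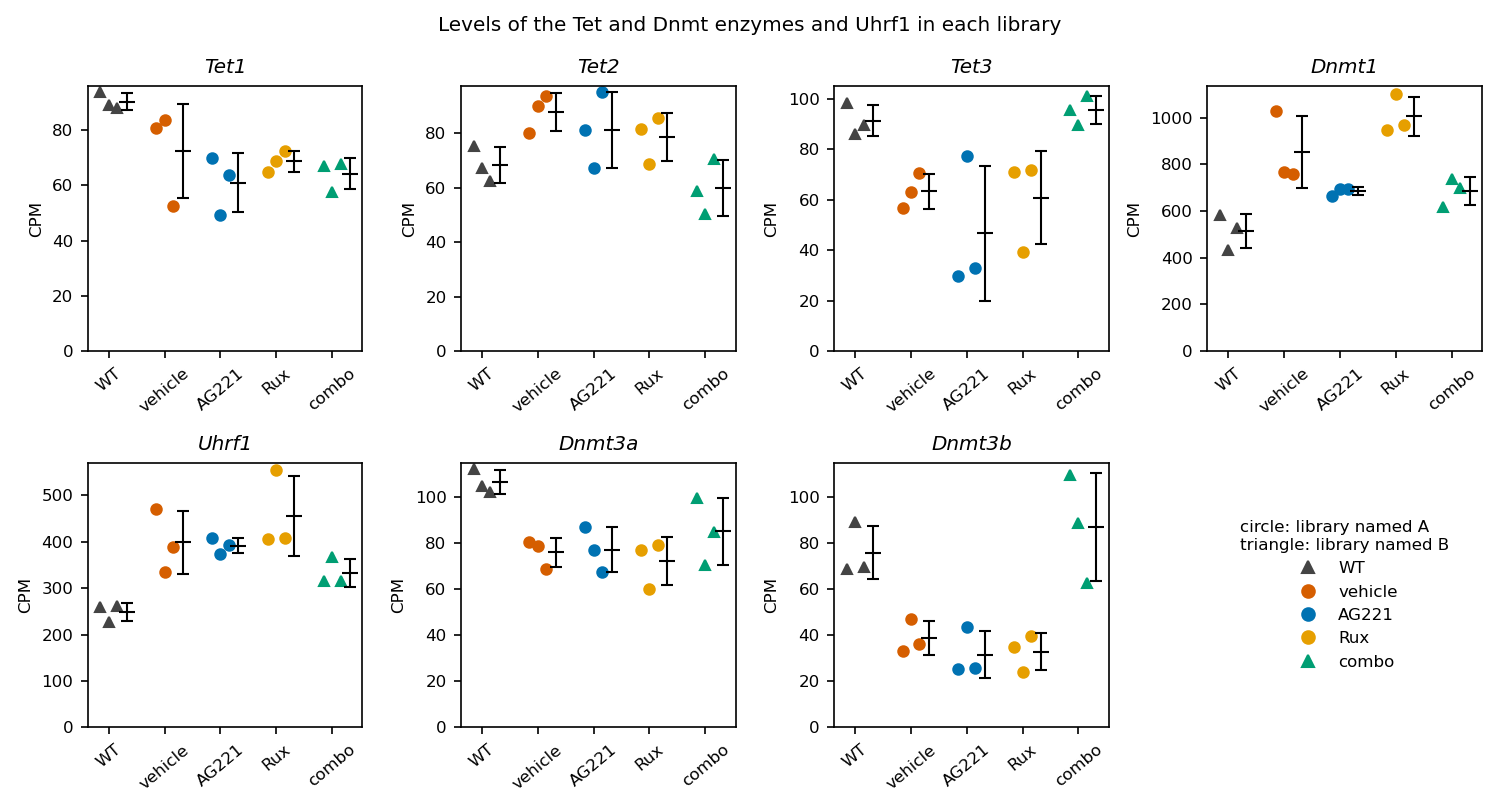
CPM of each gene (vertical axes, from 0) in the 15 libraries by group, with bars for the mean and SD of 3 libraries at the right of each group; circles are libraries named A and triangles libraries named B. Dnmt3b lies between 62.8 and 109.5 CPM in the 6 libraries named B and between 24.1 and 47.0 CPM in the 9 named A.

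Across the 5 groups, edgeR's quasi-likelihood test called 50.7% of all tested genes at a Benjamini-Hochberg adjusted p under 0.05, and 4 of the 7 were among them. These were Dnmt3b (adjusted p = 0.00155), Dnmt1 (0.00195), Uhrf1 (0.00475) and Dnmt3a (0.0402). The 3 Tet genes were not called, with adjusted p of 0.0513 for Tet3, 0.0656 for Tet2 and 0.0794 for Tet1. DESeq2 called 6 of the 7 and 11677 of all genes, where edgeR called 9042.

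Dnmt1 (ENSMUSG00000004099, chr9:20907209-20959888, minus strand, GRCm38) is the methyltransferase that copies methylation at replication. It stood at 581, 434 and 528 CPM in WT B28, B30 and B31, at 1029, 767 and 760 CPM in vehicle A1, A3 and A4, at 666, 694 and 696 CPM in AG221 A8, A9 and A10, at 948, 1102 and 967 CPM in Rux A14, A16 and A17, and at 619, 736 and 700 CPM in combo B24, B25 and B26. Each WT library lay below each of the 12 mutant libraries, AG221 and combo overlapped one another, and both lay below vehicle without overlap. The share of all tested genes with WT apart from all 12 mutant libraries was not counted, here or for Uhrf1, Dnmt3a and Tet1 below. In order of their means the groups ran Rux, vehicle, AG221, combo and WT, and neighbours overlapped except vehicle with AG221 and combo with WT.

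Uhrf1 (ENSMUSG00000001228, chr17:56303321-56323486, plus strand), the hemimethylated CpG reader that recruits Dnmt1, ran close to it. Its levels were 259.8, 227 and 261 CPM in WT B28, B30 and B31, 470.3, 335 and 389 CPM in vehicle A1, A3 and A4, 407, 374 and 392 CPM in AG221 A8, A9 and A10, 405, 554 and 407 CPM in Rux A14, A16 and A17, and 315, 367 and 316 CPM in combo B24, B25 and B26. WT was again the lowest group with no overlap, vehicle, AG221 and Rux overlapped, and Rux A16 and vehicle A1 held the highest values of both genes. Over the 15 libraries the log2 CPM of Dnmt1 and Uhrf1 correlated with a Pearson r of 0.908 and a Spearman rho of 0.786, and with an r of 0.790 after each group's mean was removed.

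In vehicle against WT both genes were higher in the untreated mutant cells, a comparison that also crosses letter and sex and in which 33.3% of all tested genes were called, 15.4% higher and 17.9% lower. Dnmt1 had a mean of 852 ± 153 CPM in vehicle against 514 ± 74.4 CPM in WT (SD, n = 3 libraries each). The log2 fold change of Dnmt1 was 0.73 with a standard error of 0.14 (adjusted p = 0.00507, edgeR). Mean Uhrf1 was 398 ± 68.0 CPM against 249 ± 19.3, a log2 fold change of 0.68 with a standard error of 0.15 (adjusted p = 0.00814). Both calls held in each of the 14 alternative analyses, where the log2 fold change ran from 0.59 to 1.003 for Dnmt1 and from 0.56 to 0.90 for Uhrf1. Within the letter B, combo against WT gave 0.41 for Dnmt1 (adjusted p = 0.105) and 0.42 for Uhrf1 (0.116), neither called. The groups did not overlap in either gene, but the share of all tested genes without overlap was not counted there. In vehicle against WT that share was 56.9%.

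Replication genes moved in the same comparison. Of 20 S phase genes such as Mcm4 and Mcm2, parts of the replicative helicase, 11 were higher in vehicle than in WT and 0 lower, with a median log2 fold change of 0.55 beside -0.091 over all tested genes. Of 16 G2 and M phase genes 12 were higher, led by Aurkb, a mitotic kinase, at a log2 fold change of 0.86 (adjusted p = 0.00322). The mean log2 CPM of the S phase genes was 6.86 to 7.12 in WT, 7.20 to 7.61 in vehicle and 7.43 to 7.72 in combo. Its r with Dnmt1 was 0.721 over the 15 libraries and 0.367 within groups, and with Uhrf1 0.787 and 0.588. It was as strong with the opposite sign for Tet1, at -0.769 and -0.660, and for Dnmt3a, at -0.767 and -0.515. Combo and vehicle overlapped in this mean. Their Dnmt1 did not overlap, like 34.7% of all tested genes, and was not called (log2 fold change -0.32, adjusted p = 0.181, edgeR). In combo against vehicle 2 of the 20 S phase genes and 1 of the 16 G2 and M phase genes were higher and 0 lower. All tested genes had 8.28% higher and 4.21% lower, near these counts. In combo against WT 1 of the 20 and 7 of the 16 were higher and 0 lower, with medians of 0.46 and 0.69. Of all 17834 tested genes 291 were higher and 288 lower there, with a median of 0.038. The part of cell cycle genes in the Dnmt1 and Uhrf1 results was not tested.

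**Figure D2:**
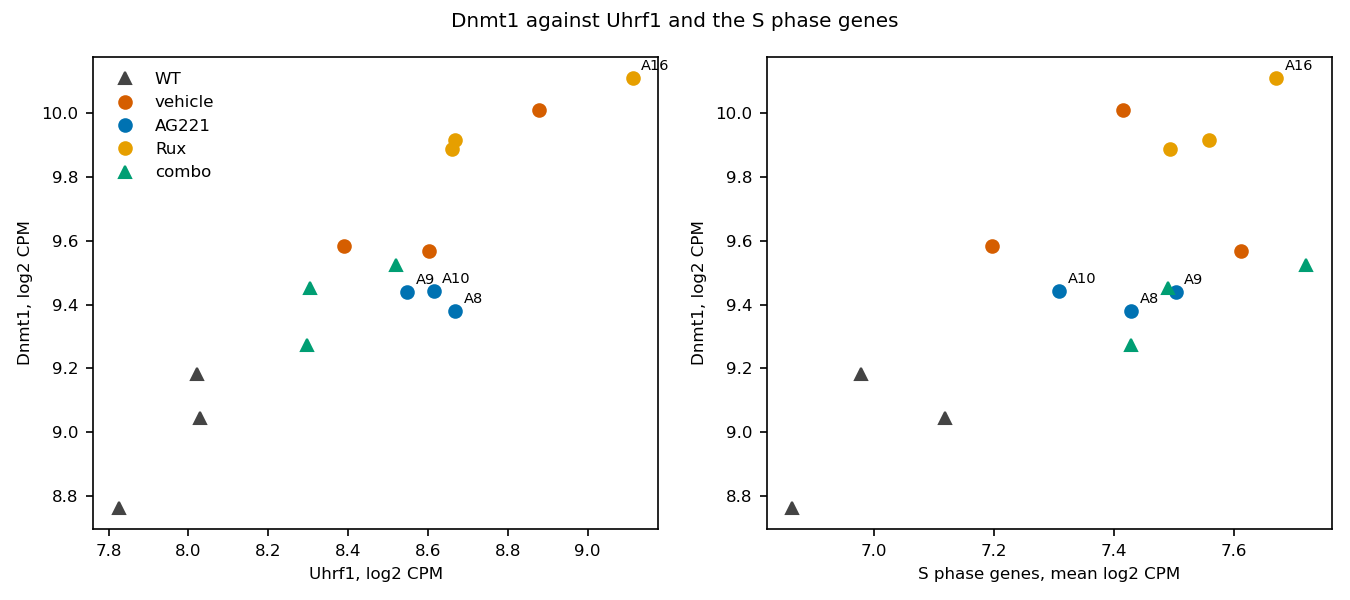
Log2 CPM of Dnmt1 (vertical axes) against log2 CPM of Uhrf1 (left) and against the mean log2 CPM of 20 S phase genes (right), 1 point per library, coloured by group. The WT libraries sit at the lower left in both panels, and Rux A16 has the highest Dnmt1.

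A start region of each gene is shown because the pair moved together. RefSeq's table for GRCm38.p6 gives 300 bases for each start, 250 before it and 50 after, and it matched all 7 genes with 12 entries. The motifs searched on both strands were TTTCCCGC and TTTGGCGC, forms of the E2F site, and TTCNNNGAA, the palindrome that STAT factors bind. Of the 32851 promoters listed, 1.07% hold the first, 0.514% the second and 8.30% the third. Among the 12 entries the only match was 1 TTTGGCGC in a Dnmt1 promoter, which is in capitals here, and so no matches overlap; the other sequences have no capitals because no motif was found in the window. Of 3 Dnmt1 windows and 2 Uhrf1 windows listed, the ones with the most CpG sites are printed.
Dnmt1, chr9:20952574-20952873, minus strand: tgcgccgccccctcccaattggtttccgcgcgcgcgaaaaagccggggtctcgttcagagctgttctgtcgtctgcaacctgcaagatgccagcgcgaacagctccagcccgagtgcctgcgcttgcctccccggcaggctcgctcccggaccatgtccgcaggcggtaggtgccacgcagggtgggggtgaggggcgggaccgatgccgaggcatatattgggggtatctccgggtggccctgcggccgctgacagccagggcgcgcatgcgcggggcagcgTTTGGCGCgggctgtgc
Uhrf1, chr17:56304063-56304362, plus strand: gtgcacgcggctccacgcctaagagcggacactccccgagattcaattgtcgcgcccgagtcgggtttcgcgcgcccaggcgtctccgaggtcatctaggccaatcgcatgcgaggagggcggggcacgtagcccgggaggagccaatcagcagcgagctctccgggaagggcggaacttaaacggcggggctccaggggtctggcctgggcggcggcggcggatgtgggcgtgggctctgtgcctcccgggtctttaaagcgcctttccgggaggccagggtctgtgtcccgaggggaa
Each of these windows holds 33 CpG sites, where the median promoter holds 7 and the quartiles are 3 and 20. The remaining windows hold 12 and 2 CpG sites for Dnmt1 and 12 for Uhrf1. A match is a string of letters and not a measured binding site, and methylation at these sites was not measured here.

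Dnmt3b (ENSMUSG00000027478, chr2:153649450-153687730, plus strand) is a de novo methyltransferase. Its level was 68.5, 89.1 and 69.7 CPM in WT B28, B30 and B31, 33.2, 47.0 and 36.3 CPM in vehicle A1, A3 and A4, 25.4, 43.3 and 25.8 CPM in AG221 A8, A9 and A10, 35.0, 24.1 and 39.7 CPM in Rux A14, A16 and A17, and 109.5, 88.6 and 62.8 CPM in combo B24, B25 and B26. All 6 libraries named B lay above all 9 named A, WT and combo overlapped, and vehicle, AG221 and Rux overlapped. The order by means was combo, WT, vehicle, Rux and AG221, and the step from WT to vehicle was the 1 step without overlap.

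Of the 7 pairwise comparisons made, Dnmt3b was called in the 4 that crossed the letters and in none of the 3 within a letter. It was lower in vehicle than in WT, at 38.8 ± 7.27 against 75.8 ± 11.6 CPM (SD, n = 3 each), with a log2 fold change of -0.96 with a standard error of 0.27 (adjusted p = 0.0176, edgeR). In combo, at 87.0 ± 23.4 CPM, it was higher than in vehicle by a log2 fold change of 1.16 (adjusted p = 0.0126), than in AG221 by 1.47 (0.00318) and than in Rux by 1.40 (0.00467), each with a standard error of 0.27. Within a letter the log2 fold changes were -0.30 for AG221 against vehicle, -0.24 for Rux against vehicle and 0.20 for combo against WT, with adjusted p of 0.492, 1 and 0.669. The 95% confidence interval of the last ran from -0.37 to 0.77. With 1 library left out at a time the 3 values ran from -0.61 to -0.14, from -0.41 to -0.057 and from 0.019 to 0.40, in that order. Without combo B24 the call against vehicle was lost (0.96, adjusted p = 0.0694), as it was without vehicle A1 (1.06, 0.0684), and over all 14 alternatives the adjusted p ran from 0.000414 to 0.0694. The call against Rux held in all 15 alternatives, and that against AG221 was lost only without AG221 A8 and A10 and Rux A16 (0.99, 0.114, within 4.93e-06 to 0.114), a setting chosen after seeing the data. The vehicle against WT call was lost without vehicle A1 (-0.84, 0.0677), vehicle A4 (-0.90, 0.0585) or WT B30 (-0.83, 0.0797), within a range of 0.00453 to 0.0797.

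The gap between the letters was not particular to this gene. Of all tested genes 12.5% had no overlap between the 6 libraries named B and the 9 named A, and of the 7 genes Dnmt3b and Tet3 were the ones with no overlap, both higher in B. The immediate early genes, which respond within minutes to signals and to handling of cells, went with the letter as well. Of 20 such genes 17 were higher in vehicle than in WT, beside 15.4% of all tested genes, with a median log2 fold change of 3.602 beside -0.091. In combo against vehicle 15 of the 20 were lower, beside 4.21%, with a median of -3.74 beside 0.037. Their mean log2 CPM over 20 genes was 5.37 to 7.58 in the libraries named A and 3.03 to 3.73 in those named B. Over all libraries it correlated with Dnmt3b at an r of -0.702, but after removal of the group means the r was 0.867. The sign turned in the same way for Tet3 (-0.472 and 0.665) and Dnmt3a (-0.545 and 0.515), and in the other direction for Dnmt1 (0.646 and -0.449) and Uhrf1 (0.621 and -0.779). Tet2 had an r of 0.714 over all libraries and 0.025 within groups, and Tet1 -0.259 and 0.017. Without AG221 A8 and A10 and Rux A16 the values were -0.852 and 0.757 for Dnmt3b, -0.611 and 0.469 for Dnmt3a, 0.708 and -0.453 for Dnmt1 and 0.7004 and -0.645 for Uhrf1, while for Tet3 they were -0.905 and -0.127, with no turn of sign. What the letter contributes to the Dnmt3b differences cannot be told apart from genotype, treatment and, against WT, sex.

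**Figure D3:**
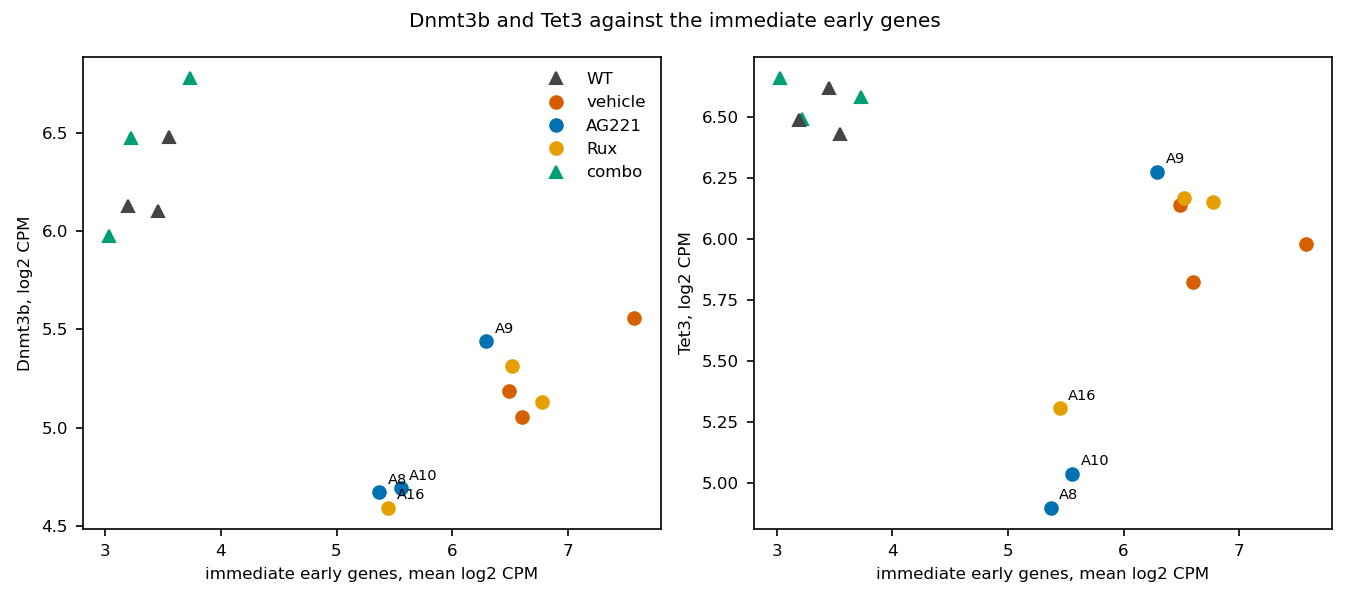
Log2 CPM of Dnmt3b (left) and Tet3 (right) against the mean log2 CPM of 20 immediate early genes, 1 point per library, circles for names with A and triangles for names with B. The 6 triangles lie apart at the upper left, and among the circles the libraries A8, A10 and A16 are lowest on both axes.

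Dnmt3a (ENSMUSG00000020661, chr12:3806007-3914443, plus strand), the other de novo enzyme, was highest in WT. The values were 113, 105 and 103 CPM in WT B28, B30 and B31, 80.6, 78.8 and 68.99 CPM in vehicle A1, A3 and A4, 87.2, 77.0 and 67.7 CPM in AG221 A8, A9 and A10, 77.2, 60.4 and 79.4 CPM in Rux A14, A16 and A17, and 99.7, 70.8 and 85.2 CPM in combo B24, B25 and B26. The 4 mutant groups overlapped one another, and none of their libraries reached the WT range, a separation whose share over all tested genes was not counted. In vehicle against WT the log2 fold change was -0.49 with a standard error of 0.16 (adjusted p = 0.0309, edgeR), with means of 76.1 ± 6.25 and 107 ± 5.23 CPM (SD, n = 3 each).

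That Dnmt3a call was lost on leaving out any 1 of the 6 libraries. Without vehicle A1, A3 or A4 the log2 fold change was -0.51 (adjusted p = 0.0667), -0.49 (0.0585) or -0.40 (0.114), and without WT B28, B30 or B31 it was -0.43 (0.0954), -0.50 (0.0848) or -0.50 (0.0523). With no filter beyond 1 count it was -0.45 (0.0895). With a GC content offset the log2 fold change was -0.33 (adjusted p = 0.112), and with an offset for transcript length it was -0.030 (0.894), within adjusted p of 0.0151 to 0.894 over the 14 alternatives. Combo against WT gave -0.33 (adjusted p = 0.211) and combo against vehicle 0.16 (0.563), neither called. Over the 15 libraries the r between Uhrf1 and Dnmt3a was -0.836 and between Uhrf1 and Dnmt3b -0.780, and within groups -0.445 and -0.630. For Dnmt1 the r with Dnmt3a was -0.734 and with Dnmt3b -0.645, and within groups -0.227 and -0.523.

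Beside the 33.3% of all tested genes called in vehicle against WT, of the 7 genes 2 were called higher and 2 lower. Leaving out 1 library at a time, 2 or 3 of the 7 were called. None of the 7 overlapped between the groups, beside 56.9% of all tested genes. The median log2 fold change over all tested genes was -0.091, and it became 0.096 with the GC content offset and 0.094 with the length offset, a shift of more than 0.1. It was -0.87 in DESeq2 and -1.01 with no filter beyond 1 count, fits that also hold the genes at low counts. The offsets differ from gene to gene, and with the length offset Dnmt3a moved from -0.49 to -0.030, Tet2 from 0.36 to 0.83 and Tet1 from -0.32 to 0.11. Under both offsets Dnmt1 and Uhrf1 remained higher in vehicle and Dnmt3b lower. The share of called genes that were higher in vehicle was 46.3%, and 26.7% with upper quartile scaling, 60.0% with the GC and 61.0% with the length offset.

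None of the Tet genes was called in vehicle against WT. Tet1 (ENSMUSG00000047146, chr10:62804570-62908996, minus strand) was at 88.1 to 93.7 CPM in WT and at 49.1 to 83.5 CPM in the 12 mutant libraries. No mutant library reached the WT range, a separation whose share over all tested genes was not counted. None of the 7 pairwise comparisons made called Tet1. The smallest adjusted p among them was 0.112, in combo against WT, at a log2 fold change of -0.49 with a standard error of 0.18. With only the groups compared that value was -0.56 and was called (adjusted p = 0.0225, within 0.0225 to 0.545 over the alternatives). In vehicle against WT it was -0.32 (adjusted p = 0.170), and 0.11 with the length offset.

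Tet2 (ENSMUSG00000040943, chr3:133463679-133545139, minus strand) is the Tet enzyme most studied in blood stem cells. Its values were 75.4, 67.1 and 62.4 CPM in WT B28, B30 and B31, 80.1, 89.8 and 93.5 CPM in vehicle A1, A3 and A4, 81.0, 67.2 and 95.04 CPM in AG221 A8, A9 and A10, 81.5, 68.7 and 85.6 CPM in Rux A14, A16 and A17, and 58.6, 50.3 and 70.6 CPM in combo B24, B25 and B26. Combo was the lowest group and overlapped WT, AG221 and Rux but not vehicle. In order of means the groups ran vehicle, AG221, Rux, WT and combo, and each overlapped the next. Combo against vehicle, 59.8 ± 10.2 against 87.8 ± 6.91 CPM (SD, n = 3 each), gave a log2 fold change of -0.55 with a standard error of 0.16 (adjusted p = 0.0419, edgeR). The call was lost without combo B24 (-0.54, adjusted p = 0.142), combo B25 (-0.45, 0.166), vehicle A1 (-0.62, 0.0782), vehicle A3 (-0.54, 0.100) or vehicle A4 (-0.51, 0.120), and with no filter beyond 1 count (-0.58, 0.0970), within adjusted p of 0.0138 to 0.166 over the alternatives. Combo and vehicle differ in letter, and combo against WT, within a letter, gave -0.19 (adjusted p = 0.485). Tet2 in vehicle against WT was 0.36 (adjusted p = 0.101) and was called with the GC offset (0.53, 0.0275) and the length offset (0.83, 0.00772), within 0.00772 to 0.291. In combo against AG221 it was -0.44 (adjusted p = 0.0548) and was called in 8 of 15 alternatives, within 0.00761 to 0.701, among them without AG221 A9 (-0.55, 0.0141) and without combo B26 (-0.57, 0.0357).

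Tet3 (ENSMUSG00000034832, chr6:83362373-83459084, minus strand) had the largest spread within a group relative to the group's mean, in AG221. The levels were 98.2, 86.2 and 89.8 CPM in WT B28, B30 and B31, 56.6, 63.0 and 70.5 CPM in vehicle A1, A3 and A4, 29.7, 77.4 and 32.7 CPM in AG221 A8, A9 and A10, 71.1, 39.4 and 71.9 CPM in Rux A14, A16 and A17, and 95.6, 89.9 and 101 CPM in combo B24, B25 and B26. AG221 A8 and A10 and Rux A16 were low and lay apart from the remaining library or libraries of their groups. The libraries named B lay above all those named A.

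Idh2, one of the mutated genes, had the same low libraries. It was at 55.1, 335 and 65.9 CPM in AG221 A8, A9 and A10, at 480.2, 124 and 425 CPM in Rux A14, A16 and A17, and between 213 and 568 CPM in the remaining 9 libraries. The log2 CPM of Tet3 and Idh2 correlated with an r of 0.946 over the 15 libraries and 0.977 after removal of the group means, and that of Dnmt3b and Idh2 with 0.707 and 0.692. Without AG221 A8 and A10 and Rux A16 these were 0.651 and 0.786 for Tet3 and 0.406 and 0.014 for Dnmt3b, over 12 libraries, of which AG221 A9 adds nothing to the second values. Dnmt3b was also lowest in these 3 libraries, at 24.1 to 25.8 CPM. Idh2 was not the gene most like Tet3, as Rai1, Pigx and Gm42418 had an r of 0.982, 0.981 and 0.980 over the 15 libraries. Other listed genes also spread widely within AG221, such as Mcm6 at 216 to 905 CPM and Vhl at 6.54 to 33.4 CPM. How many tested genes share the low libraries was not counted. On the principal components of all tested genes AG221 A8 and A10 lay together at -102 and -87.9 on the first, which held 45.9% of the variance, with A9 at -26.3, and Rux A16 stood alone at 66.6 on the fourth, which held 4.48%. The first component also separated the letters, at -102 to -9.31 in libraries named A and 9.10 to 138.6 in those named B. AG221 A8 and A10 had 1.46% of counts on mitochondrial genes, the highest share, and Rux A16 the highest mean of the erythroid markers, 6.38 log2 CPM beside 2.55 to 5.18 in the other libraries.

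**Figure D4:**
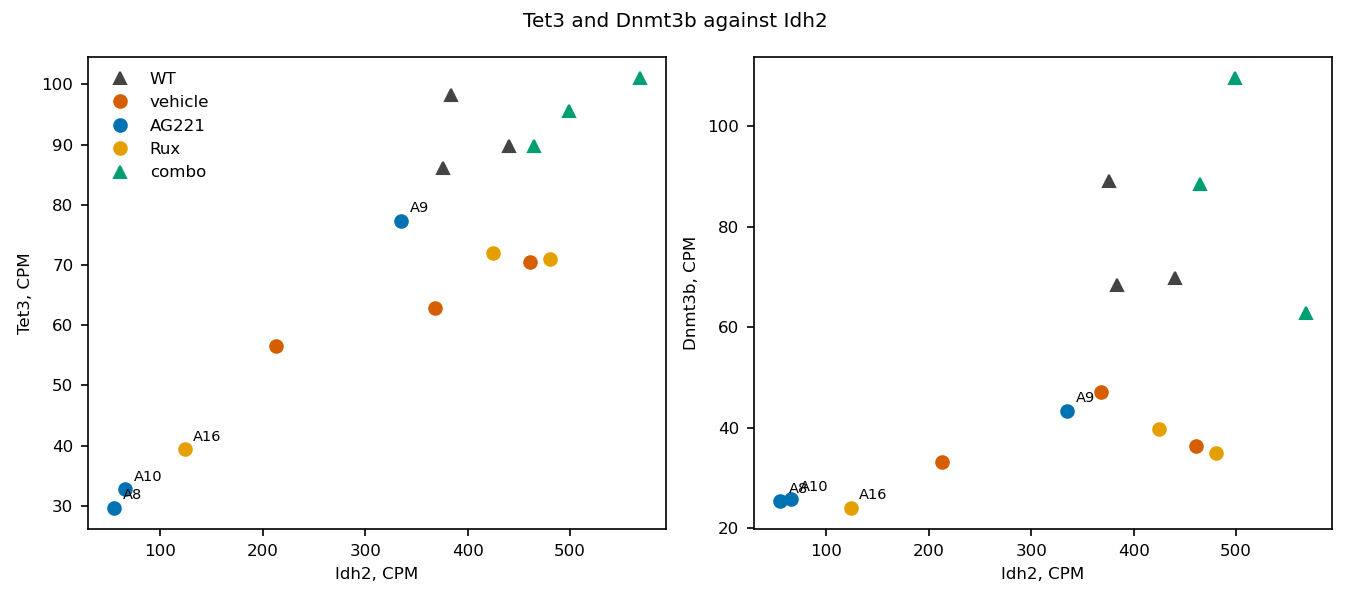
CPM of Tet3 (left) and Dnmt3b (right) against CPM of Idh2, 1 point per library, coloured by group, circles for names with A and triangles for names with B. AG221 A8 and A10 and Rux A16 have the lowest Idh2, Tet3 and Dnmt3b, and AG221 A9 has the highest Tet3 of the circles.

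Among the 7 pairwise comparisons made and the interaction, Tet3 was called only in combo against AG221. There the means were 95.5 ± 5.58 and 46.6 ± 26.7 CPM (SD, n = 3 each) and the log2 fold change 1.04 with a standard error of 0.31 (adjusted p = 0.0226, edgeR). The call was lost without the low AG221 libraries, the log2 fold change being 0.76 without A8 (adjusted p = 0.103), 0.80 without A10 (0.0993) and 0.29 without A8 and A10 together with Rux A16 (0.454), an analysis chosen after seeing the data that leaves AG221 with 1 library assumed to vary like the others. It was also lost without combo B24 (1.04, 0.0605) or combo B26 (0.997, 0.0567) and with only the groups compared (1.01, 0.0708). The range of adjusted p over the alternatives was 0.00026 to 0.454. In vehicle against WT the log2 fold change was -0.53 with a standard error of 0.31 (adjusted p = 0.197), and with only the groups compared it was called at -0.56 (0.0144), as in combo against vehicle, at 0.59 (0.0211) beside 0.59 (0.247) with all groups; these adjusted p ran from 0.0144 to 0.859 and from 0.0211 to 0.474 over the alternatives.

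The start regions of Tet3 and Dnmt3b, the pair with no overlap between the letters, each hold more CpG sites than the median promoter. That is not particular to this pair, as windows of Tet1, Tet2, Dnmt1, Uhrf1 and Dnmt3a do so too.
Tet3, chr6:83441629-83441928, minus strand: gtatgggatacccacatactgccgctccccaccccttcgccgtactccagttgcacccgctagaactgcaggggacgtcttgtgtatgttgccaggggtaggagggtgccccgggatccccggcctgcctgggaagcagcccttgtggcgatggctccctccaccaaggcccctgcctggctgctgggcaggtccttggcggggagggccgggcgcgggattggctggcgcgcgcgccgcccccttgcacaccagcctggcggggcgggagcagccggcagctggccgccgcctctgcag
Dnmt3b, chr2:153649199-153649498, plus strand: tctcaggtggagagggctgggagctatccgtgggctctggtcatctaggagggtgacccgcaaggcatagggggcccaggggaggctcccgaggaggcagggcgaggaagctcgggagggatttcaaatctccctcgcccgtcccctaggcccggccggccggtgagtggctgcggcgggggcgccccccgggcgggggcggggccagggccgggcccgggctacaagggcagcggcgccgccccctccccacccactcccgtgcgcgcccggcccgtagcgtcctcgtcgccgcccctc
The Tet3 window holds 22 CpG sites and the Dnmt3b window 30. The Tet2 window holds 57, those of Dnmt3a 46, 47 and 18, and that of Tet1 17. The Tet3 window lies inside the gene's span, away from its 5' end at 83459084. In log2 CPM Tet3 and Dnmt3b correlated with an r of 0.847 over the libraries and 0.671 within groups, and without AG221 A8 and A10 and Rux A16 with 0.805 and -0.234.

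Neither drug alone changed any of the 7 genes past the threshold. In AG221 against vehicle edgeR called 0 of the 7, with 0.987% of all tested genes called, 1 of the 7 at an unadjusted p under 0.05 beside 4498 of all 17834 tested genes, and 0 called by DESeq2 beside 2391 of all genes. The 1 was Dnmt1, at 685 ± 16.6 against 852 ± 153 CPM (SD, n = 3 each) and a log2 fold change of -0.31 with a 95% confidence interval of -0.62 to -0.0047 (adjusted p = 0.193). With 1 library left out at a time that Dnmt1 value lay between -0.40 and -0.16, and other alternatives reached -0.11. Tet3 was called in that comparison without AG221 A9, at -1.03 (adjusted p = 0.00509, beside up to 0.802 in other alternatives), and 4672 of all tested genes were then called in place of 176. In Rux against vehicle edgeR called 0 of the 7 and 3 of all tested genes (0.0168%), 0 of the 7 had an unadjusted p under 0.05 beside 813 of all 17834 tested genes, and DESeq2 called 0 of the 7 and 50 of all genes. The 7 log2 fold changes there lay between -0.24 for Dnmt3b and 0.24 for Dnmt1, with intervals that reached from -0.81 to 0.61.

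Both drugs together were set against vehicle, against WT and against each drug. Combo against vehicle called 12.5% of all tested genes (8.28% higher and 4.21% lower) and 2 of the 7, Dnmt3b higher and Tet2 lower. In that comparison 4 of the 7 had no overlap, beside 34.7% of all tested genes. Combo against WT, both named B, called 3.25% of all tested genes and 0 of the 7 by edgeR and by DESeq2, which called 1855 of all genes. At an unadjusted p under 0.05 there were 3 of the 7 (Tet1, Dnmt1 and Uhrf1) beside 4529 of all 17834 tested genes. Dnmt1 was lower in combo than in Rux, at 685 ± 60.2 against 1005 ± 84.1 CPM (SD, n = 3 each), with a log2 fold change of -0.55 with a standard error of 0.14 (adjusted p = 0.0221, edgeR), where 2 of the 7 and 12.4% of all genes were called. That Dnmt1 call was lost without combo B24 (-0.48, adjusted p = 0.116), B25 (-0.61, 0.05) or B26 (-0.57, 0.0561), without Rux A16 (-0.52, 0.0769), without AG221 A8 and A10 and Rux A16 (-0.51, 0.0881) and with no filter beyond 1 count (-0.57, 0.0680), within 0.00482 to 0.116. Uhrf1 in combo against Rux had a log2 fold change of -0.45 (adjusted p = 0.0707, edgeR). It was called with DESeq2 (-0.475, 0.0466) and with at least 10 counts in every library (-0.47, 0.0352). Against AG221 the log2 fold change of Dnmt1 in combo was -0.00094, and 33.2% of all genes and 2 of the 7, Dnmt3b and Tet3, were called.

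**Figure D5:**
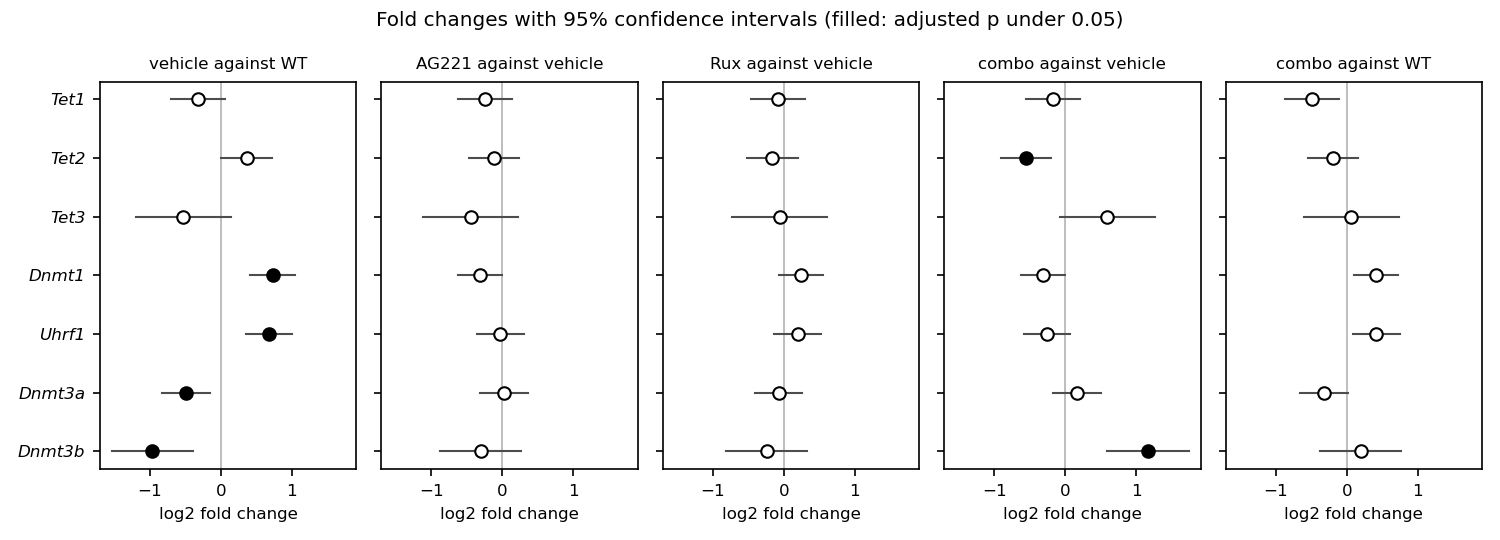
Log2 fold change of each gene (horizontal axes) with its 95% confidence interval from edgeR in 5 comparisons of 3 against 3 libraries; filled points have an adjusted p under 0.05. In vehicle against WT Dnmt1 and Uhrf1 lie above 0 and Dnmt3a and Dnmt3b below, and in the comparisons within a letter no point is filled.

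Whether the drugs added on the log2 scale was tested by the interaction, combo minus AG221 minus Rux plus vehicle. It was called for 8.42% of all tested genes and for 1 of the 7, Dnmt3b, at 1.71 with a standard error of 0.38 and a 95% confidence interval of 0.89 to 2.52 (adjusted p = 0.0333, edgeR). Dnmt3b was thus higher in combo than the sum of both single changes gives, but combo is the 1 group of these 4 named B. The call was lost in 10 of 21 alternatives. It was lost without AG221 A8 (1.53, adjusted p = 0.0876), AG221 A10 (1.54, 0.0879), Rux A16 (1.47, 0.068), Rux A17 (1.82, 0.0569), combo B24 (1.51, 0.0954), combo B25 (1.70, 0.0882), vehicle A3 (1.55, 0.078) or vehicle A4 (1.76, 0.0653), and with only the groups compared (1.72, 0.0605). Without AG221 A8 and A10 and Rux A16 the estimate was 1.05 (adjusted p = 0.411), the range of adjusted p being 0.000921 to 0.411. Tet3 had an interaction of 1.09 (adjusted p = 0.111) that was called without AG221 A9, at 1.68 (0.00218). With 1 library left out at a time it ran from 0.81 to 1.68, and other alternatives reached down to 0.12.

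Genes around the 7 in the pathway are counted beside the shares of all tested genes, which were 15.4% higher and 17.9% lower in vehicle against WT and 8.28% higher and 4.21% lower in combo against vehicle. Of 14 methylation cofactors 2 were higher and 3 lower in vehicle against WT, near those shares, and 4 were higher and 0 lower in combo against vehicle, with medians of -0.11 and 0.046 beside -0.091 and 0.037 over all tested genes. In AG221 against vehicle, within a letter, 2 of the 14 were higher, beside 84 of all 17834 tested genes. These were Trim28, at 92.5 CPM in AG221 and 45.0 CPM in vehicle (log2 fold change 1.04, adjusted p = 0.0477), and Usp7, a deubiquitinase that binds Dnmt1 and Uhrf1, at 75.6 and 36.6 CPM (1.05, 0.0458). Both calls were lost without AG221 A8 (Trim28 1.12, adjusted p = 0.176, and Usp7 1.06, 0.176), AG221 A10 (1.22, 0.098, and 1.25, 0.0832), vehicle A1 (0.95, 0.0978, and 1.07, 0.0904), vehicle A3 (0.95, 0.179, and 0.94, 0.173) or vehicle A4 (1.21, 0.0819, and 1.11, 0.0848). They were also lost with only the groups compared (1.04, 0.297, and 1.05, 0.297) and without A8 and A10 together with Rux A16 (1.39, 0.106, and 1.34, 0.129), within 0.000471 to 0.297 for Trim28 and 0.000419 to 0.297 for Usp7. Uhrf2, a relative of Uhrf1, was at 119 CPM in WT, 49.1 in vehicle and 132 in combo, log2 fold changes of -1.28 (adjusted p = 0.00939) and 1.43 (0.00792). Trim28, a corepressor that protects imprinted methylation, had log2 fold changes in vehicle against WT and combo against vehicle of -0.85 (adjusted p = 0.0141) and 1.84 (0.00071), and Hdac2, a histone deacetylase, -1.41 (0.0448) and 2.15 (0.0152). Like Dnmt3b, Uhrf2 and Hdac2 did not overlap between the letters, with 27.9 to 63.4 CPM in libraries named A and 101 to 161 CPM in those named B for Uhrf2.

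Base excision repair genes, which act after Tet oxidation, were counted together with Gadd45a, Gadd45b and Gadd45g. Of these 15 genes 5 were higher in vehicle than in WT and 0 lower, beside 15.4% higher and 17.9% lower of all tested genes. Their median log2 fold change was 0.45 beside -0.091. Parp1, which senses strand breaks, had a log2 fold change of 0.63 (adjusted p = 0.00744), and Xrcc1 0.54 (0.0120) and Lig3 0.64 (0.0275), the ligation pair of that repair. Gadd45g and Gadd45b, at 2.89 (adjusted p = 0.00065) and 1.82 (0.00588), were also among the 5 and are stress-induced genes, not repair enzymes. In combo against vehicle 1 of the 15 was higher, Tdg, the glycosylase that removes oxidized methylcytosine, at 0.78 (adjusted p = 0.0379), and 3 were lower, beside 8.28% and 4.21% of all tested genes.

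Of 9 tested Tet partners and readers of 5-hydroxymethylcytosine 4 were higher and 3 lower in vehicle against WT. Ddb1 and Dcaf1, parts of a ubiquitin ligase that modifies Tet proteins, had log2 fold changes of 0.94 (adjusted p = 0.00542) and 0.63 (0.0166), and Ogt, the glycosyltransferase that binds Tet proteins, -0.53 (0.0113). In combo against vehicle 1 of the 9 was higher and 2 lower. Of 7 genes listed as methyl-CpG readers or relatives of them 1 was higher and 2 lower in vehicle against WT, beside 15.4% and 17.9% of all tested genes. Mbd3, counted here as a relative and not as a reader, fell by 1.42 on the log2 scale (adjusted p = 0.027). It too did not overlap between the letters, with 14.04 to 45.1 CPM in libraries named A and 61.7 to 159 CPM in those named B. Of 8 genes of the methyl donor cycle 2 were higher and 2 lower, beside the same shares, among them Ahcy, which clears S-adenosylhomocysteine, at 0.83 (adjusted p = 0.0106).

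Jak2, the other mutated gene, was at 27.1 to 38.4 CPM in WT, 20.1 to 24.1 CPM in vehicle and 40.7 to 52.9 CPM in combo, and combo against vehicle gave a log2 fold change of 1.09 (adjusted p = 0.0021, edgeR). Idh2 was called in 1 comparison, combo against AG221, at 1.75 (adjusted p = 0.0417), where AG221 A8 and A10 are the low libraries. The call was lost without AG221 A8 (1.32, adjusted p = 0.146), AG221 A10 (1.36, 0.144), combo B24 (1.77, 0.0862), combo B25 (1.81, 0.0732) or combo B26 (1.67, 0.0886), with only the groups compared (1.73, 0.0807), and without A8 and A10 together with Rux A16 (0.59, 0.418), within 0.000427 to 0.418. Without AG221 A9 it was 3.08 (0.000427).

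Of the markers of the sort, Kit was at 740 to 1552 CPM in the 15 libraries, while Ly6a, which encodes Sca-1, ran from 13.1 to 166 CPM within the vehicle group alone. Cd34, a progenitor marker outside the gate, was at 665 to 1108 CPM. Marker lists of other cells are counted in vehicle against WT, where 15.4% of all tested genes were higher and 17.9% lower. Of 12 B and plasma cell markers 7 were lower in vehicle, with a mean log2 CPM of 3.32 to 4.32 in WT and at most 2.03 in each mutant library. Their most abundant gene in WT was Jchain, at 422 to 935 CPM, and it was at most 66.6 CPM in the mutant libraries. Of 8 mast and basophil markers 5 were higher in vehicle, as were 4 of 10 erythroid, 4 of 7 megakaryocyte, 4 of 10 neutrophil and 3 of 10 monocyte and dendritic cell markers. Of 9 tested T and NK cell markers 1 was higher, and of 14 LSK markers 2 were higher and 3 lower, near the shares of all tested genes. Other comparisons had such shifts as well. In combo against AG221, where Tet3 was called, 7 of 10 neutrophil, 6 of 10 monocyte and dendritic cell and 4 of 10 erythroid markers were lower. In these lists 1 erythroid marker was higher. Their medians were -2.15, -1.26 and -1.43 beside 0.11 over all 17834 tested genes, with 3371 higher and 2546 lower. In combo against Rux, where Dnmt1 and Dnmt3b were called, 5 of 10 erythroid and 4 of 10 neutrophil markers were lower. Of 10 monocyte and dendritic cell markers 2 were lower, and 0 in these 3 lists were higher. The medians there were -1.57, -1.68 and -0.54 beside 0.014, with 702 of 17834 genes lower. In the interaction 5 of 10 neutrophil markers were lower, with a median of -3.18 beside 0.069 and 503 of 17834 genes lower. In bulk samples fewer cells of a type and less RNA per cell cannot be told apart, and the part of these cell types in the levels of the 7 genes was not tested.

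Across all tested genes, the 3 whose log2 CPM was most like each of the 7 over the 15 libraries were ranked by Pearson r. Dnmt1 was followed by Parp1 (r = 0.959), Wdr24 (0.952) and Wdr62 (0.948), and Uhrf1 by Uba1 (0.972), Clcn7 (0.971) and Xrcc3 (0.961). For Dnmt3b they were Aig1 (0.986), Ccnjl (0.986) and Fam69b (0.983), and for Dnmt3a Gm26930 (0.927), Decr2 (0.927) and Sestd1 (0.923). Tet1 was most like Ift122 (0.945), Adamts12 (0.932) and Arhgef3 (0.911). For Tet2 the genes were Tgif1 (0.896), Gm42664 (0.885) and the pseudogene Gm13511 (0.870), whose reads may come from a parent gene. Tet3 was most like Rai1 (0.982), Pigx (0.981) and Gm42418 (0.980), the last of which overlaps another gene on the opposite strand over 99.5% of its exons, so that its counts are uncertain without knowledge of the strand setting. These ranks describe libraries that share groups and letters, and no test was made on them.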

How the data were processed

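The authors aligned paired-end reads to mm10 with STAR 2.5.1a and deposited raw counts of reads per Ensembl gene for 15 libraries; the Ensembl release and strand setting are not given in the sources used here. The authors also deposited DESeq2-normalized values (DESeq2 1.6.3 in the submitters' processing notes), which were not used. Of 45232 IDs, 44585 matched a GENCODE M21 symbol.

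Genes were filtered with filterByExpr by group, scaled by TMM and fitted together with edgeR 4.0.16 in R 4.3.3 (quasi-likelihood F tests, 5 groups, no covariate), with Benjamini-Hochberg adjustment over the 17834 tested genes and calls under 0.05. CPM used TMM library sizes, and log2 CPM a prior count of 2. The fit was tested on simulated data, and no result given here rests on that test. Libraries were kept separate, as the labels list them. Promoters came from RefSeq.

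The 7 genes and the lists were chosen with earlier results of these data known. Named genes are the 7, called list genes (of long lists, from the 4 with the smallest adjusted p), Idh2, Jak2 and the 3 most alike genes. Marker genes outside that rule, and Xist, Ddx3y and Dnmt3l, were named after their values were seen. Alternatives were DESeq2 1.42.0, RLE and upper quartile scaling, a looser and a stricter count filter, only the groups compared, GC content and length offsets (lowess, span 0.3), and each library left out.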

Additional observations from a re-analysis of the deposited data

Results flagged for a closer look

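Dnmt3b was singled out because the change it showed under AG221 differed with and without ruxolitinib. The interaction was 1.71 on the log2 scale (standard error 0.38, edgeR, adjusted p = 0.0333, range over the alternatives 0.000921 to 0.411). AG221 against vehicle gave -0.30 and combo against Rux 1.40, and all 3 combo libraries lay above all 9 libraries of vehicle, AG221 and Rux. Combo is the 1 mutant group whose replicate names begin with B, so treatment and letter cannot be told apart in this value.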

How the results depend on the processing

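Of 861 alternative values for 56 log2 fold changes (7 genes in 8 comparisons), 760 kept direction and side of the threshold, 43 lost a call, 19 gained one and 39 turned sign, and 0 of the sign changes concerned a called value. The cause of a change was not tested. No paired analysis was possible because no replicate name is shared by 2 groups.

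With DESeq2, 2391 genes were called in AG221 against vehicle (176 with edgeR), 50 in Rux against vehicle (3), 1855 in combo against WT (579) and 3729 in the interaction (1502), and Uhrf1 in AG221 against vehicle was 0.015 (edgeR -0.026). RLE scaling gave that Uhrf1 value as 0.023. With upper quartile scaling 738 genes were called in AG221 against vehicle, 3124 in the interaction and 4 of the 7 in combo against AG221 (2). It turned Tet2 (0.091) and Uhrf1 (0.16) in AG221 against vehicle, Dnmt3a (-0.16) and Tet1 (-0.24) in combo against AG221, Dnmt3b (-0.0080) and Tet3 (-0.14) in combo against WT, and Dnmt3a (-0.092) and Tet1 (-0.18) in the interaction. Its median over all genes moved from 0.11 to -0.18 in combo against AG221, from 0.069 to -0.24 in the interaction, from -0.0065 to 0.18 in AG221 against vehicle, from 0.038 to -0.16 in combo against WT, from 0.037 to -0.075 in combo against vehicle and from 0.014 to -0.11 in combo against Rux. The share of called genes that were higher went from 57.0% to 38.0% in combo against AG221, 66.5% to 37.2% in the interaction, 47.7% to 77.4% in AG221 against vehicle and 50.3% to 15.9% in combo against WT.

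With the GC offset 338 genes were called in AG221 against vehicle, Uhrf1 there was 0.086, and Dnmt3a (-0.055) and Tet1 (-0.036) turned in combo against AG221. With the length offset 88 genes were called in AG221 against vehicle and 4 of the 7 in combo against AG221. It turned Tet2 (0.092) and Uhrf1 (0.15) in AG221 against vehicle, Dnmt3a (-0.20) and Tet1 (-0.28) in combo against AG221, Tet2 (0.14) in combo against WT, Dnmt3a (-0.069) and Tet1 (-0.16) in the interaction and Tet1 (0.11) in vehicle against WT. The offsets moved the share of higher calls in combo against AG221 to 44.4% (GC) and 43.0% (length). In AG221 against vehicle that share was 57.8% with RLE scaling and 77.3% with the length offset. With only the groups compared it was 25.15% in the interaction and 35.2% in combo against WT. At least 10 counts in every library gave 49.5% in the interaction, 38.7% in combo against WT and 65.9% in AG221 against vehicle. No filter beyond 1 count gave 77.7%, 36.95% and 32.0% in these and 29.85% in vehicle against WT, where the main share was 46.3%. The median over all genes in combo against WT was -0.57 with DESeq2 and -0.56 with no filter, which hold more genes at low counts.

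At least 10 counts in every library gave 906 calls in AG221 against vehicle, 274 in combo against WT, 2485 in the interaction and 3406 in vehicle against WT (5937), with fewer genes tested, and Tet3 in combo against WT was -0.059. No filter beyond 1 count gave 17 calls in Rux against vehicle and 1 of the 7 in combo against vehicle and in combo against Rux (2 each). The fits with only the groups compared hold fewer libraries. In them 0 genes were called in AG221 against vehicle and in Rux against vehicle. There were 3788 calls in combo against AG221 (5917) and 167 in the interaction, but 1788 in combo against WT and 6524 in vehicle against WT (5937). Of the 7, 1 was called in combo against AG221, 1 in combo against WT (Tet1) and 0 in the interaction.

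Without AG221 A8, AG221 A10 and Rux A16, chosen after seeing the data, 3 genes were called in AG221 against vehicle, 0 in Rux against vehicle, 109 in combo against AG221 and 24 in the interaction, and of the 7, 0 in combo against AG221, 1 in combo against Rux and 0 in the interaction. Dnmt3a (-0.0026), Dnmt3b (0.14) and Tet3 (0.27) turned in AG221 against vehicle, and Dnmt3a (0.034) and Tet3 (0.17) in Rux against vehicle.

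Leaving out each library in turn, genes called ran from 1901 (without WT B30) to 5907 in vehicle against WT, 0 to 4672 (without AG221 A9) in AG221 against vehicle, 0 to 9 in Rux against vehicle, 1006 (without vehicle A1) to 1965 in combo against vehicle, 88 (without combo B25) to 415 in combo against WT, 3002 (without AG221 A8) to 8140 in combo against AG221, 1137 (without combo B24) to 1899 in combo against Rux and 44 (without combo B25) to 6087 (without AG221 A9) in the interaction. Of the 7, 2 to 3 were called in vehicle against WT, 0 to 1 in AG221 against vehicle, 0 to 2 in combo against vehicle, 1 to 3 in combo against AG221, 1 to 2 in combo against Rux and 0 to 2 in the interaction. The log2 fold change ran from -0.051 to 0.14 (Dnmt3a) and -0.14 to 0.10 (Uhrf1) in AG221 against vehicle, from -0.066 to 0.074 (Dnmt1) and -0.055 to 0.15 (Tet1) in combo against AG221, and from -0.16 to 0.043 (Dnmt3a), -0.26 to 0.037 (Tet1) and -0.21 to 0.18 (Tet3) in Rux against vehicle.

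The alternatives for Idh2, Trim28 and Usp7, and the correlations without AG221 A8, AG221 A10 and Rux A16, were also chosen after seeing the data.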
